A study of Mus musculus with 5 samples.

Results

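The SLC25 family is the set of nuclear-encoded carriers that move solutes across the inner mitochondrial membrane. It was taken here as every gene whose symbol in the deposited tables is Slc25a followed by a number, or Ucp1, Ucp2 or Ucp3. This gave 50 of the 35478 genes listed, 47 with an Slc25a symbol and 3 with a Ucp symbol. Of the 50 carriers, 45 passed the filter on low counts and were tested together with 16394 genes in all.

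SLC25 proteins exchange a substrate of the matrix for one of the intermembrane space, and most share a fold built from repeats of one membrane-spanning module. ADP/ATP carriers and the phosphate carrier feed the ATP synthase and export its product, other members carry Krebs cycle acids, amino acids, acylcarnitines, cofactors, glutathione and iron, and the uncoupling proteins form a branch of the same tree. The proximal tubule is rich in mitochondria and relies on oxidative metabolism, so these carriers are abundant in the kidney cortex.

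RNA was measured in kidney cortex of 2 Prdm16fl/fl mice (numbered 1 and 3) and 3 Ksp-Cre/Prdm16fl/fl mice (numbered 1, 2 and 3), 1 library per mouse. All were male mice, 7 to 8 weeks old in the methods. The strain label gives C57BL/6J;129, whereas the sample titles give C57BL/6J alone. All had unilateral ischemia-reperfusion injury (UIRI). The left renal pedicle was clamped for 35 minutes at 38.5°C, the right kidney was removed on day 10, and the mice were killed 24 hours later, on day 11. Both groups carry the floxed allele, with loxP sites around exon 9 of Prdm16, a transcriptional regulator. Ksp-Cre adds a Cre recombinase driven in tubular epithelium, so cells outside the tubule keep Prdm16. There is no sham-operated group among the libraries used here, so the comparison is between genotypes after injury.

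Libraries held 14939040 to 16425161 counted reads. Prdm16 had 25.3 and 20.02 CPM (counts per 1000000 counts of a library, scaled by the TMM method) in the Prdm16fl/fl mice and 17.1, 17.0 and 18.0 in the Ksp-Cre/Prdm16fl/fl mice, a log2 fold change of -0.38 ± 0.15 (SE) at an adjusted p of 0.259 in edgeR. These counts cover the whole gene and not exon 9 alone. Ksp-Cre/Prdm16fl/fl mouse 3 stood apart from its group. The chi-square per degree of freedom of its counts was 74.5 against mouse 1 and 62.7 against mouse 2, whereas mice 1 and 2 differed from each other by 9.89. Proximal tubule markers were present in every library. All 14 were lower in Ksp-Cre/Prdm16fl/fl mice, 4 at an adjusted p under 0.05, and their summed TPM (transcripts per 1000000 transcripts, a level per gene length) was 62216 to 78013 against 20153 to 38722. The 8 tubular injury markers were all higher, none at an adjusted p under 0.05 and 7 at an unadjusted p under 0.05 in edgeR (6 at an adjusted p under 0.05 in DESeq2). Their summed TPM was 18796 to 19735 against 49942 to 54331, most of it Spp1, at 16994 and 16877 TPM against 43711, 45341 and 48710 TPM. Markers of the thick ascending limb (5 of 5), distal convoluted tubule (4 of 4), collecting duct (7 of 7) and podocyte (4 of 4) were lower too, 1 of them, a podocyte marker, at an adjusted p under 0.05 in edgeR, and 6 of 6 fibroblast markers were higher, none at that threshold. Their summed TPM was 2460 to 2888 against 973 to 2490, 547 to 984 against 194 to 673, 680.1 to 844 against 476 to 771, 202 to 289 against 177 to 181, and 173 to 266 against 303 to 488. In bulk tissue, fewer cells of a type and less RNA per cell cannot be told apart, and the part of these shifts in the carrier values below was not tested.

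In the injured kidneys, 1 carrier rose in the Ksp-Cre/Prdm16fl/fl group. It was Slc25a24, a calcium-regulated ATP-Mg/phosphate carrier. No carrier was lower at an adjusted p under 0.05. The 3 carriers of highest mean TPM were the ADP/ATP carriers Slc25a5 and Slc25a4 and the phosphate carrier Slc25a3. Their CPM lay lower in every Ksp-Cre/Prdm16fl/fl mouse than in both Prdm16fl/fl mice, while the TPM of Slc25a4 overlapped.

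Of the 45 tested carriers, 0 were lower and 1 was higher at an adjusted p under 0.05 (edgeR quasi-likelihood test, Benjamini-Hochberg over all genes tested), beside 0.872% of all tested genes lower and 0.104% higher. At an unadjusted p under 0.05, 13 carriers were lower, 28.9% of those tested beside 11.2% of all genes. In the other direction 1 carrier passed that threshold, 2.22% beside 7.64%. In 17 carriers all Ksp-Cre/Prdm16fl/fl libraries lay below both Prdm16fl/fl libraries, 37.8% beside 21.3% of all genes. In 3 carriers, Slc25a24, Ucp3 and Slc25a46, they lay above, 6.67% beside 20.3%, and in the other 25 the groups overlapped. Ucp3 passed the filter on low counts only through the Ksp-Cre/Prdm16fl/fl group, so the filter favoured its place above. With at least 10 counts required in every library it was not tested, and 2 of 43 carriers lay above. Overlap is judged on TMM-scaled CPM unless another scale is named. In TPM the groups overlapped in some of the 17, among them Slc25a4, Slc25a10, Slc25a23, Slc25a26 and Slc25a40. The log2 fold change was below 0 in 29 carriers, 64.4% beside 46.0% of all genes, and the median was -0.11 beside 0.038 over all genes.

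The split by direction depended on the scaling. With libraries scaled by their totals, the median of all genes moved to 0.15, the median of the carriers to -0.0017, and 23 carriers were lower and 22 higher. Under the same scaling 15 carriers lay below and 8 lay above without overlap. The shares of all genes without overlap were not computed for that scaling. The DESeq2 Wald test called 8 of 44 carriers lower at an adjusted p under 0.05 and 1 higher, beside 5.56% and 1.98% of the genes to which it gave an adjusted p. The 8 were Slc25a3, Slc25a5, Slc25a11, Slc25a13, Slc25a21, Slc25a23, Slc25a25 and Slc25a39. Without Ksp-Cre/Prdm16fl/fl mouse 3, edgeR called 15 carriers lower, 33.3% beside 11.0% of all genes, and 1 higher, 2.22% beside 7.82%. In the same subset 26 carriers lay below and 4 above without overlap, beside 30.4% and 33.3% of all genes. With no filter beyond 1 count, edgeR called 2 carriers lower and 1 higher, beside 1.59% and 0.246% of all genes.

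**Figure D1:**
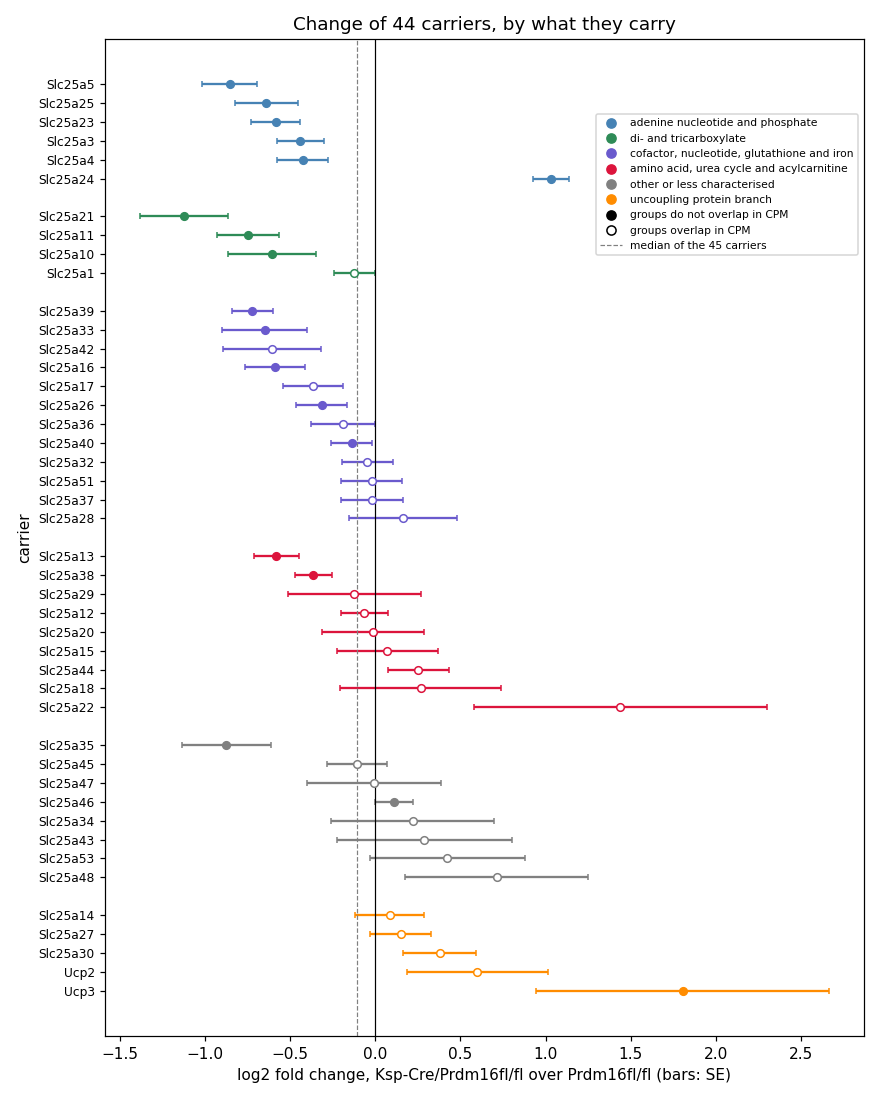
Log2 fold change of 44 of the 45 tested carriers (x axis, Ksp-Cre/Prdm16fl/fl over Prdm16fl/fl, edgeR on TMM-scaled counts of 2 and 3 mice; bars are SE), grouped by substrate. Filled points are carriers whose groups do not overlap in CPM, 3 of them to the right of 0 and the rest to the left, and the dashed line is the median of all 45, -0.11.

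Of 6 tested carriers of adenine nucleotides and phosphate, Slc25a24 rose and no other passed an adjusted p of 0.05 in edgeR. In the other 5 all Ksp-Cre/Prdm16fl/fl libraries lay below both Prdm16fl/fl libraries in CPM, beside 21.3% of all genes. In TPM the groups overlapped for Slc25a4, at 694 in Ksp-Cre/Prdm16fl/fl mouse 1 against 682 in Prdm16fl/fl mouse 1. They also overlapped for Slc25a23, at 49.62 in Ksp-Cre/Prdm16fl/fl mouse 1 against 49.34 in Prdm16fl/fl mouse 3. Slc25a5 encodes the ADP/ATP carrier ANT2 and had the highest level of the family. It had 995 and 1163 CPM in the Prdm16fl/fl mice and 584, 542 and 665 CPM in the Ksp-Cre/Prdm16fl/fl mice. The groups were far apart, with a log2 fold change of -0.85 ± 0.16 (SE) and an adjusted p of 0.066 in edgeR. The phosphate carrier Slc25a3 had 972 and 1043 CPM against 759, 695 and 773 CPM. Its log2 fold change was -0.44 ± 0.14 (SE), with an adjusted p of 0.172 in edgeR. Slc25a4, which encodes the ADP/ATP carrier ANT1 of heart and muscle, had 396 and 459 CPM against 345, 285 and 325 CPM. It was lower in all 3 Ksp-Cre/Prdm16fl/fl mice, with a log2 fold change of -0.43 ± 0.15 (SE) and an adjusted p of 0.206 in edgeR. In the DESeq2 Wald test the adjusted p was 1.2e-04 for Slc25a5 and 0.040 for Slc25a3.

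The calcium-regulated ATP-Mg/phosphate carriers shift the adenine nucleotide content of the matrix and have calcium-binding domains facing the intermembrane space. Slc25a24 had 42.2 and 40.5 CPM in the Prdm16fl/fl mice and 85.9, 81.5 and 86.02 CPM in the Ksp-Cre/Prdm16fl/fl mice. All 3 Ksp-Cre/Prdm16fl/fl values, mouse 3 included, were about the same and lay well above both others. The log2 fold change was 1.03 ± 0.11 (SE), a fold of 2.04 at an adjusted p of 0.034 in edgeR. The call was lost on leaving out any of 4 mice, with adjusted p in edgeR of 0.261 and 0.496 without Prdm16fl/fl mouse 1 or 3 and of 0.117 and 0.136 without mouse 1 or 2 of the Ksp-Cre/Prdm16fl/fl group. In each of those fits no gene of the whole table was called, and the log2 fold change of Slc25a24 stayed between 0.9995 and 1.056. Without Ksp-Cre/Prdm16fl/fl mouse 3 its adjusted p was 6.8e-04 in edgeR.

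The other carriers of this kind went the opposite way. Slc25a23 had 96.6 and 91.0 CPM against 71.0, 63.3 and 53.4 CPM, a log2 fold change of -0.58 ± 0.15 (SE) at an adjusted p of 0.115 in edgeR. Slc25a25 had 362 and 422 CPM against 208, 252 and 296 CPM, a log2 fold change of -0.64 ± 0.18 (SE) at an adjusted p of 0.148 in edgeR. In both carriers the groups did not overlap in CPM. The remaining members, Slc25a31, Slc25a41 and Slc25a54, had 0 to 5 counts in every library and were not tested. Slc25a31 encodes the ADP/ATP carrier known from male germ cells.

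**Figure D2:**
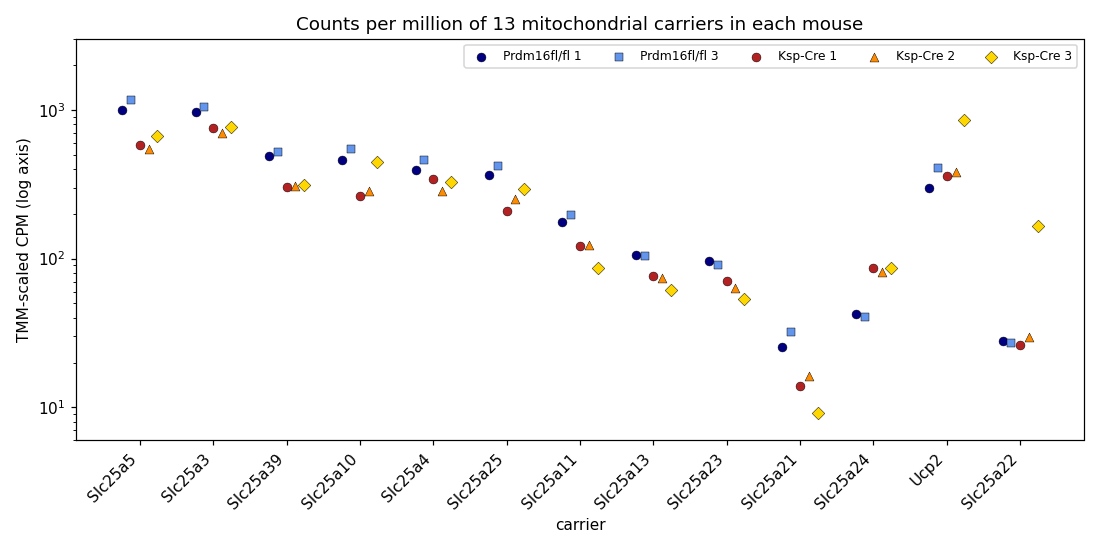
TMM-scaled CPM (y axis, log scale) of 13 carriers in each of the 5 mice, 1 point per mouse. Slc25a24 sits at 42.2 and 40.5 in Prdm16fl/fl mice and at 81.5 to 86.02 in Ksp-Cre/Prdm16fl/fl mice, whereas Slc25a22 is high in Ksp-Cre/Prdm16fl/fl mouse 3 only, at 167.

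The sequence upstream of the start is shown for Slc25a24, the only carrier called in edgeR with all mice. It is also shown for Slc25a39 and Slc25a5, which had the next smallest p-values, and for the other abundant carriers, Slc25a3 and Slc25a4. The sequences are RefSeq promoter windows of GRCm38.p6, cut to the 250 bases before the annotated start, 5′ to 3′ on the strand of the gene. They cover chr3:109122899-109123148 (plus strand) for Slc25a24, chrX:36795347-36795596 (plus strand) for Slc25a5, chr11:102407518-102407767 (minus strand) for Slc25a39, chr10:91123968-91124217 (minus strand) for Slc25a3 and chr8:46211063-46211312 (minus strand) for Slc25a4. Capitals mark the ETS-type motif CCGGAAG.
Slc25a24: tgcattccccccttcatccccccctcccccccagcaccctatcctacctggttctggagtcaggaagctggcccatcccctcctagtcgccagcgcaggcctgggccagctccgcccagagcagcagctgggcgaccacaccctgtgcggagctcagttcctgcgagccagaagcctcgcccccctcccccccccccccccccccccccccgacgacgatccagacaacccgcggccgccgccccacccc
Slc25a5: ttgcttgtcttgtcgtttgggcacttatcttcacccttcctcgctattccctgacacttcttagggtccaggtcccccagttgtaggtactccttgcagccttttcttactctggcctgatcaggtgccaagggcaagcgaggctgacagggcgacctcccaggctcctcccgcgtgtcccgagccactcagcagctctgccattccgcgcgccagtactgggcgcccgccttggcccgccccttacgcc
Slc25a39: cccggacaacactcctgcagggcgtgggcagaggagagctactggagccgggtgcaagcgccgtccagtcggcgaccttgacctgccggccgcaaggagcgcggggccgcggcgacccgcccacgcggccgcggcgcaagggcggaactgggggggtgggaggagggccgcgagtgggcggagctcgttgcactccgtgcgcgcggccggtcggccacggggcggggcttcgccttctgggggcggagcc
Slc25a3: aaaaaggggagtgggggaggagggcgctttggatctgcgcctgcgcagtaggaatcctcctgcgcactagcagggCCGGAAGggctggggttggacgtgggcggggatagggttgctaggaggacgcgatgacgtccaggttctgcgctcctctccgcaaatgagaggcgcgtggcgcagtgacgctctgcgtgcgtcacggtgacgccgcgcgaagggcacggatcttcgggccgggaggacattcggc
Slc25a4: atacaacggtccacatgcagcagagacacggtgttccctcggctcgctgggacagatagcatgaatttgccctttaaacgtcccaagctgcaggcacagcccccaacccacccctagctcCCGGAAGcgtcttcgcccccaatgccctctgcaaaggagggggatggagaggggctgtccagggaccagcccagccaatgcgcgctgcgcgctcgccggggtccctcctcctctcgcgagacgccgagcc

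Both strands of 300-base windows, from 250 before to 50 after a start, were searched for AAGGTCA (bound by estrogen-related receptors), GCATGCG (the core of the NRF1 motif) and CCGGAAG (ETS type, bound by GABP), and no 2 of these overlapped in the windows shown. Of the 50 carriers, 39 had a window. CCGGAAG occurred in 7 of the 39, 17.9% beside 9.93% of all 27025 genes with a window. It occurred in 4 of the 14 carriers with a window and no overlap that were lower (Slc25a3, Slc25a4, Slc25a25 and Slc25a38), and in 2 of the other 22 tested carriers with a window. AAGGTCA occurred in 1 carrier, Slc25a34, beside 5.38% of all genes. GCATGCG occurred in 2 carriers, the barely detected Slc25a31 and Slc25a54, beside 4.01%. The GC content of the 250 bases was 72.8% for Slc25a24, 61.6% for Slc25a5, 77.2% for Slc25a39, 66.4% for Slc25a3 and 64.8% for Slc25a4. A match here is a match of letters and was not tested as a binding site.

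The di- and tricarboxylate carriers move Krebs cycle acids and reducing equivalents. All 4 had a log2 fold change below 0, beside 46.0% of all genes, with a median of -0.68 beside 0.038. All 4 were also below 0 under every scaling. In 3 the Ksp-Cre/Prdm16fl/fl libraries lay below without overlap, beside 21.3% of all genes. The oxoglutarate carrier Slc25a11, a part of the malate-aspartate shuttle, had 176 and 196 CPM in the Prdm16fl/fl mice and 122, 123.2 and 86.9 CPM in the Ksp-Cre/Prdm16fl/fl mice. Its log2 fold change was -0.75 ± 0.18 (SE), with an adjusted p of 0.112 in edgeR. Of its exonic bases, 11.4% are shared with Rnf167 on the opposite strand, and whether counting used the strand is not given in the sources used here. Slc25a21, the carrier of oxoadipate and oxoglutarate, had 25.3 and 31.9 CPM against 13.9, 16.2 and 9.2 CPM. This was the lowest log2 fold change in the family, -1.12 ± 0.26 (SE), with an adjusted p of 0.10 in edgeR. Succinate and malate leave the matrix through the dicarboxylate carrier Slc25a10, which had 458 and 549 CPM against 262, 283 and 448 CPM. Its highest Ksp-Cre/Prdm16fl/fl CPM, in mouse 3, came close to the lower Prdm16fl/fl mouse. In TPM the groups overlapped, at 268 in Ksp-Cre/Prdm16fl/fl mouse 3 against 263 in Prdm16fl/fl mouse 1. The log2 fold change of this carrier was -0.61 ± 0.26 (SE) at an adjusted p of 0.281 in edgeR. Without mouse 3 the log2 fold change of Slc25a10 was -0.88 and its adjusted p was 0.0026 in edgeR. Slc25a1, the citrate carrier, overlapped between groups, with 112 and 118 CPM against 99.9, 100.2 and 116 CPM.

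The carriers of cofactors, nucleotides, glutathione and iron formed the largest class. Of 13 tested, 12 had a log2 fold change below 0, beside 46.0% of all genes, with a median of -0.31 beside 0.038. With scaling by library totals 9 did. In 6 the Ksp-Cre/Prdm16fl/fl libraries lay below without overlap, beside 21.3% of all genes. Slc25a39 brings glutathione into the matrix. It had 489 and 523 CPM in the Prdm16fl/fl mice and 303, 307 and 312 CPM in the Ksp-Cre/Prdm16fl/fl mice. The Ksp-Cre/Prdm16fl/fl values were tightly grouped, mouse 3 included. Its log2 fold change was -0.72 ± 0.12 (SE), with an adjusted p of 0.055 in edgeR and of 7.7e-06 in the DESeq2 Wald test. Its close relative Slc25a40 had 28.4 and 27.1 CPM against 25.8, 26.1 and 23.8 CPM, at a log2 fold change of -0.14. In TPM the groups of Slc25a40 overlapped, at 2.49 and 2.16 against 2.65, 2.68 and 2.18.

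Slc25a42 imports coenzyme A, and Slc25a16 has been linked to the same cofactor. Slc25a16 had 145 and 171 CPM against 91.6, 97.2 and 126 CPM, a log2 fold change of -0.59 ± 0.18 (SE) at an adjusted p of 0.159 in edgeR. Slc25a42 had 133 and 115 CPM against 59.0, 69.8 and 116 CPM, so that mouse 3 alone reached the Prdm16fl/fl range. Its adjusted p was 0.326 with all mice and 0.0020 without mouse 3, both in edgeR. Slc25a33 carries pyrimidine nucleotides and had 11.5 and 15.4 CPM against 7.27, 7.80 and 10.7 CPM, a log2 fold change of -0.65 ± 0.25 (SE) at an adjusted p of 0.237 in edgeR. The S-adenosylmethionine carrier Slc25a26 had a log2 fold change of -0.31 at an adjusted p of 0.321 in edgeR. In TPM its groups overlapped, at 13.03 and 12.13 against 13.05, 12.44 and 10.45. Slc25a17, which is a peroxisomal and not a mitochondrial member, overlapped between groups with 147 and 207 CPM against 132, 151 and 129 CPM. The mitoferrins Slc25a28 and Slc25a37, which import iron, and the NAD carrier Slc25a51 overlapped too, with log2 fold changes of 0.16, -0.02 and -0.02.

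Carriers of amino acids and acylcarnitines had no common direction. Of 9 tested, 5 were lower and 4 higher, with a median of -0.01. Slc25a13 encodes citrin, the aspartate-glutamate carrier of the urea cycle and malate-aspartate shuttle, and had 106 and 105 CPM in the Prdm16fl/fl mice and 76.5, 74.0 and 61.2 CPM in the Ksp-Cre/Prdm16fl/fl mice. Its log2 fold change was -0.58 ± 0.13 (SE), with an adjusted p of 0.098 in edgeR. Slc25a38, a glycine carrier needed for heme synthesis, had 42.6 and 45.2 CPM against 33.9, 34.4 and 34.1 CPM, a log2 fold change of -0.36 ± 0.11 (SE) at an adjusted p of 0.155 in edgeR. These were the members of the class without overlap, 2 of the 9 tested beside 21.3% of all genes, so the class was near the share of all genes. Red blood cell markers moved with the groups, 5 of 5 higher at a summed 24.1 to 34.003 TPM against 155 to 657 TPM, and their part in the values of heme and iron carriers was not tested. Slc25a20 exchanges acylcarnitines for carnitine and so admits long-chain fatty acids to oxidation. It had 83.3 and 112 CPM against 70.5, 83.8 and 136 CPM, a spread within each group that left a log2 fold change of -0.01 ± 0.30 (SE), with a sign that turned in 8 of 15 alternative analyses.

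Slc25a22, a glutamate carrier, was 1 of 5 carriers that stood out in a single animal. It had 27.7 and 27.0 CPM in the Prdm16fl/fl mice while mice 1 and 2 of the other genotype had 26.2 and 29.7 CPM and mouse 3 had 167 CPM. The log2 fold change over all mice was 1.44 ± 0.86 (SE), with an adjusted p of 0.421 in edgeR, and it was 0.034 without mouse 3. The ornithine carrier Slc25a15 was likewise highest in mouse 3, with 140 and 124 CPM against 106, 110 and 199 CPM, and its values in mice 1 and 2 lay below both Prdm16fl/fl mice. Slc25a44, a carrier of branched-chain amino acids, had 43.4 and 36.3 CPM against 42.7, 42.7 and 57.2 CPM, a log2 fold change of 0.25 at an adjusted p of 0.491 in edgeR. Slc25a2 had 0 to 8 counts per library and was not tested.

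All 5 tested members of the uncoupling branch had a log2 fold change above 0, also under every scaling, with a median of 0.38. Of all 16394 genes tested, 8857 had a log2 fold change above 0 with TMM scaling. With Prdm16fl/fl mouse 3 left out, 2 of them (Slc25a14 and Slc25a27) were lower. None passed an unadjusted p of 0.05 in edgeR or an adjusted p of 0.05 in DESeq2. In 1 of the 5 the groups did not overlap, beside 20.3% of all genes that lay above. This was Ucp3, which passed the filter on low counts only through the group where it was higher. Ucp2 was the most abundant of them, with 298 and 403 CPM in the Prdm16fl/fl mice and 361, 383 and 850 CPM in the Ksp-Cre/Prdm16fl/fl mice. In CPM mouse 3 held the high value, and the other 2 Ksp-Cre/Prdm16fl/fl mice lay between the Prdm16fl/fl mice. In TPM all 3 Ksp-Cre/Prdm16fl/fl mice lay above both others, at 563, 598 and 1183 against 398 and 489. The share of all genes without overlap was not computed for TPM. The log2 fold change of Ucp2 was 0.60 ± 0.41 (SE) at an adjusted p of 0.481 in edgeR. Without mouse 3 it was 0.090. Ucp3, a muscle-enriched member, had 5 and 6 counts against 11, 12 and 42 counts, and a log2 fold change of 1.81 ± 0.86 (SE) at an adjusted p of 0.324 in edgeR. Without mouse 3 the log2 fold change of Ucp3 was 0.79. Slc25a30, known from kidney mitochondria, had 68.2 and 50.4 CPM against 63.8, 73.3 and 94.1 CPM. Its groups overlapped and its adjusted p was 0.396 in edgeR.

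Ucp1, the uncoupling protein of brown fat, where Prdm16 is best known, had 2 or 3 counts in every library. At this depth no difference in Ucp1 was detectable. Of 5 brown adipocyte markers, Elovl3 was at 0 in every library and Cidea, Adipoq and Plin1 were at or below 0.31 TPM, so that Fabp4, which endothelium also makes, held nearly all of their summed 70.8 to 78.2 TPM against 97.8 to 157 TPM. Among 4 skeletal muscle markers Myh4 was at 0 in every library, and the summed level was 1.5 to 2.3 TPM against 1.1 to 3.1 TPM, lowest in mouse 3, where Ucp3 was highest.

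Members with little known function were spread around 0, with 3 of 8 lower and 5 higher. Slc25a35 had 14.4 and 16.1 CPM in the Prdm16fl/fl mice and 11.0, 7.27 and 6.60 CPM in the Ksp-Cre/Prdm16fl/fl mice. Its log2 fold change was -0.87 ± 0.26 (SE) at an adjusted p of 0.157 in edgeR, and 22.2% of its exonic bases are shared with the opposite-strand gene Rangrf. Slc25a46, an outer membrane protein of mitochondrial fission and fusion, had 69.6 and 69.0 CPM against 71.9, 71.8 and 80.6 CPM, at a log2 fold change of 0.11. Slc25a48, tied to choline transport, had 5.87 and 3.80 CPM against 5.68, 4.49 and 13.7 CPM, again highest in mouse 3. Slc25a34 was highest in mouse 3 as well, and in mice 1 and 2 it lay below both Prdm16fl/fl mice, with 29.6 and 34.6 CPM against 22.0, 25.2 and 65.03 CPM. Its log2 fold change was 0.22 with all mice and -0.44, at an adjusted p of 0.046 in edgeR, without mouse 3. The others, Slc25a43, Slc25a45, Slc25a47 and Slc25a53, overlapped between groups.

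Ksp-Cre/Prdm16fl/fl mouse 3 thus differed from mice 1 and 2 in the carriers as well. It was the highest of the 5 libraries in 20 carriers, 44.4% beside 32.0% of all genes, and the lowest in 11, 24.4% beside 32.0%. Slc25a22, Slc25a34, Slc25a48, Ucp2 and Ucp3 were at least 1 log2 unit above the mean of mice 1 and 2, 11.1% of the carriers beside 3.68% of all genes. No carrier was that far below, beside 6.22% of all genes. In the same library the summed macrophage markers were lowest, at 1405 TPM against 3377 and 3056 TPM in mice 1 and 2. Among these markers only Lyz2 and Adgre1 were themselves lowest there, with Lyz2 at 518 TPM against 1960 and 1771 TPM. In TPM, C1qa, C1qb, Cd68 and Csf1r of mouse 3 lay above both Prdm16fl/fl mice, and C1qc lay between them. The thick ascending limb markers summed to 973 TPM against 2490 and 2191 TPM. The part of these in the carrier values was not tested.

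**Figure D3:**
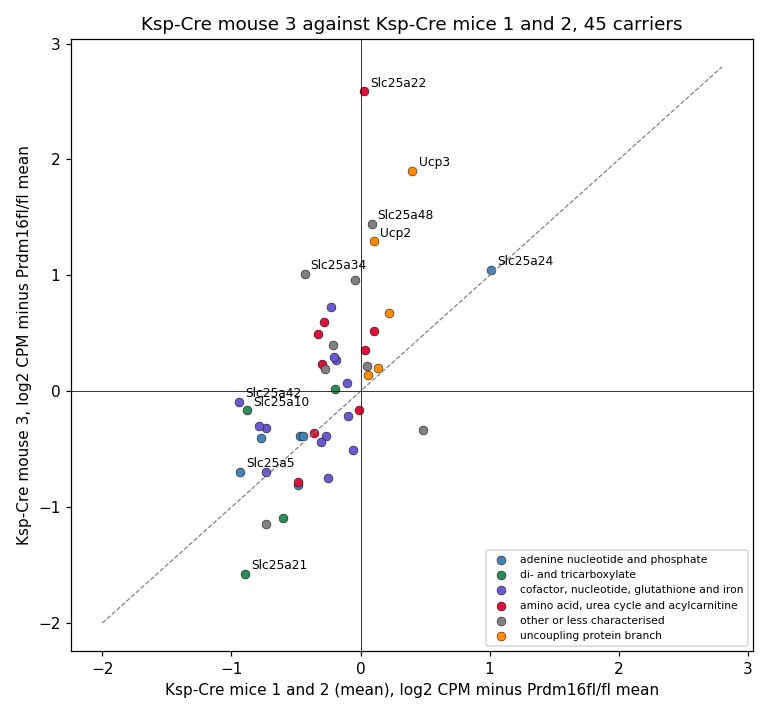
Log2 CPM of 45 carriers relative to the Prdm16fl/fl mean, in Ksp-Cre/Prdm16fl/fl mouse 3 (y axis) against the mean of mice 1 and 2 (x axis), with the line of equality. Slc25a24 lies on the line near 1.0, whereas Slc25a22, Ucp3, Slc25a48, Ucp2 and Slc25a34 lie at least 1 unit above it.

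On the TPM scale, which allows genes to be set against each other, a few carriers made up most of the family. Mean TPM over the 5 mice was 1438 for Slc25a5, 1181 for Slc25a3, 650 for Slc25a4, 646 for Ucp2, 312 for Slc25a39 and 236 for Slc25a10. The ranges of Slc25a5 (1120 to 1870) and Slc25a3 (1075 to 1298) overlapped over the 5 mice, though Slc25a5 was higher than Slc25a3 in each mouse and their Prdm16fl/fl values were apart, at 1763 and 1870 against 1298 and 1264 TPM. The ranges of Slc25a4 (573 to 718) and Ucp2 (398 to 1183) overlapped too, while in Prdm16fl/fl mice Slc25a4 was the higher, at 682 and 718 against 398 and 489 TPM. Slc25a3, Slc25a4 and Slc25a5 together reached 3743 and 3852 TPM in the Prdm16fl/fl mice and 3088, 2778 and 2887 TPM in the Ksp-Cre/Prdm16fl/fl mice. Their mean share of the family was 56.96% in the former group and 48.9% in the latter. The summed difference had an exact permutation p of 0.1, two-sided, the smallest that 10 splits of 5 mice allow. In CPM each of these carriers already lay lower in every Ksp-Cre/Prdm16fl/fl mouse than in both Prdm16fl/fl mice. A sum without overlap was therefore likely beforehand, and its p is a description only.

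The family as a whole summed to 6572 and 6761 TPM against 5797, 5617 and 6568 TPM, with an exact permutation p of 0.2. Mouse 3 nearly reached the Prdm16fl/fl level. Without Ucp2 the sums were 6175 and 6273 TPM against 5235, 5019 and 5386 TPM, which did not overlap (exact permutation p of 0.1). Leaving out Ucp2 was not planned and takes away its 1183 TPM in mouse 3, so this p is a description only. Slc25a5 took 27.2% ± 0.59 (SD, n = 2) of the family in Prdm16fl/fl mice and 19.8% ± 1.1 (SD, n = 3) in Ksp-Cre/Prdm16fl/fl mice, and Ucp2 took 6.64% ± 0.83 (SD, n = 2) and 12.8% ± 4.5 (SD, n = 3). Across the 45 carriers, which share the same 5 libraries, log2 fold change and log2 mean TPM had a Pearson r of -0.37 and a Spearman rho of -0.40, given as a description. Among the 15 carriers of highest TPM, 13 were lower, with a median of -0.44, and among the other 30, 16 were lower, with a median of -0.014. Of all genes 46.0% were lower, and the relation of change to level was not computed over all genes.

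**Figure D4:**
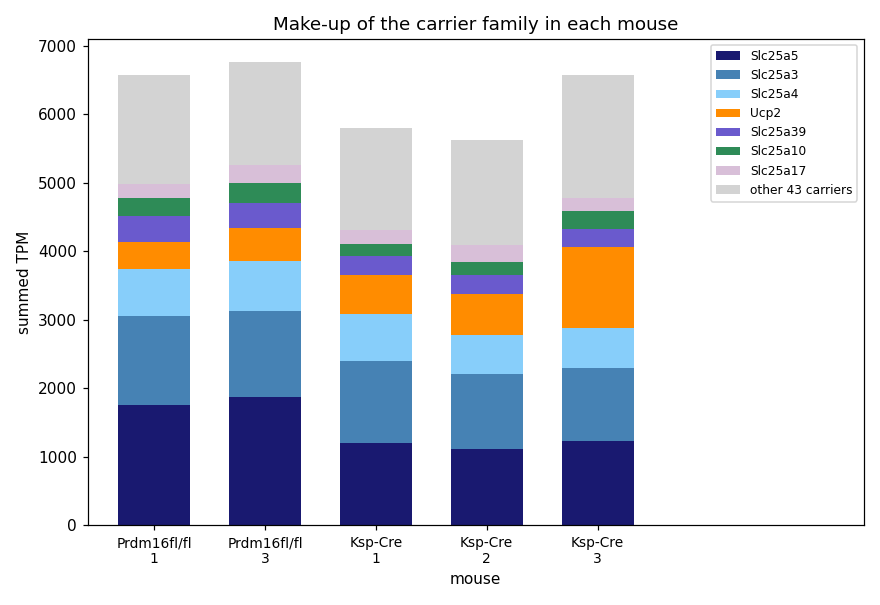
Summed TPM of the 50 carriers in each mouse (bars start at 0), with the 7 most abundant carriers in colour. The part held by Slc25a3, Slc25a4 and Slc25a5 is 3743 and 3852 in Prdm16fl/fl mice and 2778 to 3088 in Ksp-Cre/Prdm16fl/fl mice, and Ucp2 widens to 1183 in Ksp-Cre/Prdm16fl/fl mouse 3.

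Ratios within related pairs remove the scaling of the library. In 10 pairs the log2 ratio of TPM was compared between groups, and in 4 the groups did not overlap, each with an exact permutation p of 0.1, the smallest the design allows, and 0.25 after adjustment over the 10 pairs. Slc25a23 over Slc25a24 changed the most. The ratio was 2.02 and 1.98 in the Prdm16fl/fl mice and 0.728, 0.684 and 0.547 in the Ksp-Cre/Prdm16fl/fl mice, so that the order of these calcium-regulated carriers was inverted in all 3 of the latter. Slc25a4 over Slc25a5, the ADP/ATP carriers, was 0.387 and 0.384 against 0.574, 0.511 and 0.476. Slc25a12 over Slc25a13, the aspartate-glutamate carriers, was 0.321 and 0.275 against 0.439, 0.386 and 0.458. Slc25a39 over Slc25a40 was 153 and 171 against 104, 104 and 116. The other 6 pairs overlapped, with exact permutation p of 0.3 to 1.

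**Figure D5:**
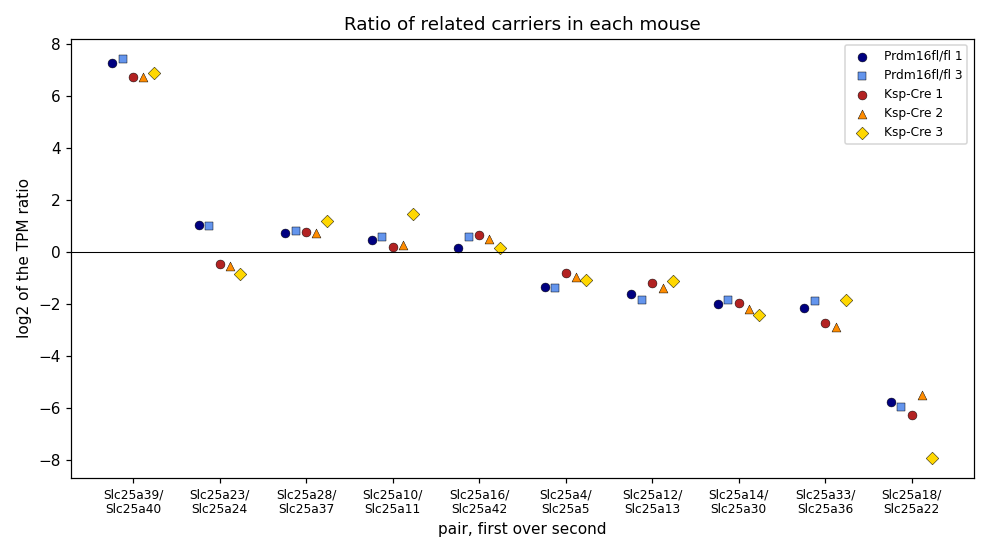
Log2 of the TPM ratio (y axis) of 10 pairs of related carriers in each mouse, 1 point per mouse. Slc25a23/Slc25a24 is at 1.01 and 0.98 in Prdm16fl/fl mice and at -0.46 to -0.87 in Ksp-Cre/Prdm16fl/fl mice, and Slc25a18/Slc25a22 drops to -7.91 in Ksp-Cre/Prdm16fl/fl mouse 3.

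Carriers are inserted into the inner membrane by the TIM22 route, in which the receptor TOM70 and small chaperones of the intermembrane space hand them over. Of 10 genes of this route, all tested, 9 had a log2 fold change below 0, beside 46.0% of all genes, with a median of -0.34 beside 0.038. None passed an adjusted p of 0.05 in edgeR, 4 were lower at an unadjusted p under 0.05 (11.2% of all genes), and DESeq2 called 4 lower (5.56% of the genes to which it gave an adjusted p). In 7 the Ksp-Cre/Prdm16fl/fl libraries lay below both others and in 1 above, beside 21.3% and 20.3% of all genes. The chaperone Timm8b had 88.1 and 97.6 CPM against 58.02, 55.2 and 60.8 CPM, a log2 fold change of -0.68 at an adjusted p of 0.054 in edgeR. Timm13 and Timm9, chaperones of the same group, had log2 fold changes of -0.58 and -0.56 at adjusted p of 0.075 and 0.090 in edgeR. Timm29, a subunit of the TIM22 complex, lay above in all 3 mice at a log2 fold change of 0.12.

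Of 29 other transport genes of mitochondria, all tested, 24 had a log2 fold change below 0, beside 46.0% of all genes, with a median of -0.24 beside 0.038. None passed an adjusted p of 0.05 in edgeR. At an unadjusted p under 0.05, 11 were lower and 0 higher in edgeR, beside 11.2% and 7.64% of all genes. DESeq2 called 7 lower and 0 higher, beside 5.56% and 1.98%. In 13 of the 29 the groups overlapped, in 15 the Ksp-Cre/Prdm16fl/fl libraries lay below and in 1 above, beside 21.3% and 20.3% of all genes. Smdt1, the regulatory subunit EMRE of the calcium uniporter, had 160 and 183 CPM against 111, 93.7 and 93.3 CPM, a log2 fold change of -0.79 at an adjusted p of 0.056 in edgeR. Mpc2, a subunit of the pyruvate carrier, had 301 and 376 CPM against 203, 189 and 182 CPM, a log2 fold change of -0.82 at an adjusted p of 0.058 in edgeR. Mcur1, a uniporter regulator, had a log2 fold change of -0.76 at an adjusted p of 0.073 in edgeR.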

How the data were processed

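RNA-seq libraries of 5 mouse kidneys were analysed, grouped by genotype as the sample labels give it, 1 library per mouse. The authors deposited the read count per gene without normalization, and beside it TPM and FPKM made by the authors from that count and the gene length. Both could be rebuilt from the counts to within rounding. The submitters' processing notes name featureCounts 2.0.1, DESeq2 1.16.1 and the human build hg38, whereas the files hold mouse genes. The start of 48 of the 50 carriers in the files differs from GRCm38, so positions of the files are not printed. The aligner, annotation and strand setting are not given in the sources used here. Genes encoded by mitochondrial DNA were not analysed here. In each file 5 broken lines were rejoined, and 0 columns of per-sample values were left unused.

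The 35478 genes were passed through the filterByExpr filter in edgeR 4.0.16, TMM-scaled and tested by quasi-likelihood with genotype as the only term in R 4.3.3, with Benjamini-Hochberg adjustment over 16394 genes. CPM are per 1000000 TMM-scaled counts. Log2 fold changes are Ksp-Cre/Prdm16fl/fl over Prdm16fl/fl. Summed TPM and pair ratios were compared with a two-sided exact permutation test over 10 splits. The edgeR p-values set the genotype difference against the variation between these mice, which is moderated over all genes tested. The carriers named with values are those at an adjusted p under 0.05, those with the smallest p (up to 16 lower and 8 higher), the most abundant of each class, and the members of 10 pairs. For the 2 transport lists they are the 3 smallest p of each. Others named with values (among them Slc25a1, Slc25a15, Slc25a28, Slc25a34, Slc25a37, Slc25a51 and Timm29) were chosen after their values were seen. The values of 1 tested carrier are not reported here, and it enters counts and medians only. The members and gene lists were chosen with earlier results of these data known. Promoter windows came from RefSeq (GRCm38.p6), and protein sequences were not used here.

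Alternatives were the DESeq2 1.42.0 Wald test, no filter beyond 1 count, a minimum of 10 counts per library, other scalings (library size, upper quartile, DESeq2 size factors), omission of each mouse in turn, a block on mouse number, limma 3.58.1 on log2 FPKM with 1 or 0.1 added (genes reaching an FPKM of 1 in 2 libraries), and removal of a length and GC trend (loess, span 0.3). The fits were tested on simulated counts with known changes. Python 3.11.15 with pandas 2.3.3, scipy 1.17.1 and matplotlib 3.10.9 served for tables, exact tests and figures.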

Additional observations from a re-analysis of the deposited data

How the results depend on the processing

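With 2 and 3 mice the calls depended both on the libraries used and on the method. The number of carriers lower at an adjusted p under 0.05 was 0 with all mice, 8 with the DESeq2 Wald test, 2 (Slc25a5 and Slc25a39) with no filter beyond 1 count, and 0 to 15 when 1 mouse was left out, 15 without Ksp-Cre/Prdm16fl/fl mouse 3. The number higher was 1, Slc25a24, and 0 to 1 when 1 mouse was left out. It was 0 with the length and GC trend removed, where its adjusted p was 0.053 in edgeR. Carriers lower without overlap numbered 17, and 18 to 26 when 1 mouse was left out. The share of all genes was 21.3% with all mice and 30.4% without Ksp-Cre/Prdm16fl/fl mouse 3. Carriers higher without overlap numbered 3, with 8 under scaling by library size, 7 on log2(FPKM + 1) and 7 on log2(FPKM + 0.1). With at least 10 counts in every library, which left out Ucp3, they numbered 2. Carriers higher without overlap numbered 3 to 8 when 1 mouse was left out (8 and 6 without control mouse 1 or 3, and 6 without Ksp-Cre mouse 1). The share of all genes was 20.3% with all mice and 33.3% without Ksp-Cre/Prdm16fl/fl mouse 3. With fewer mice, groups overlap less often in any gene. For the other fits these shares were not computed, so their counts are not read as a trait of the carriers. When 1 mouse was left out, the median log2 fold change of the carriers ranged from -0.27, without Ksp-Cre/Prdm16fl/fl mouse 3, to -0.034, without Ksp-Cre/Prdm16fl/fl mouse 2, and it was -0.0017 under scaling by library size, -0.013 on log2(FPKM + 1) and -0.025 on log2(FPKM + 0.1). The log2 fold change of Slc25a20, -0.01 with all mice, was -0.33 to 0.21 when 1 mouse was left out (0.21 without control mouse 3, 0.17 and 0.082 without Ksp-Cre mouse 1 or 2) and turned to 0.087 under scaling by library size, 0.022 with the mouse number as a block, 0.057 on both FPKM scales and 0.17 with the length and GC trend removed. The cause was not tested. A replicate block on the mouse number, which only mice 1 and 3 of both groups share, gave 0 carriers in either direction, a median of -0.053, and an adjusted p of 0.165 for Slc25a24 in edgeR. Deviations of same-numbered mice from their group means had correlations of 0.014 and 0.016 in size, so the numbers gave no sign of pairing. At 0 to 8 counts per library, the depth limits any statement on Ucp1, Slc25a2, Slc25a31, Slc25a41 and Slc25a54.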
